A study of Caenorhabditis elegans with 20 samples.

Results

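The comparison described here set RNA pulled down with the ribosomes of dopamine neurons against the RNA of the whole animal in Caenorhabditis elegans. It used translating ribosome affinity purification (TRAP), in which a tagged ribosomal protein made in chosen cells is immunoprecipitated from a lysate and the RNA held by those ribosomes is sequenced. The dopamine TRAP group held 2 libraries of immunoprecipitated RNA from strain JAC379. The dopamine input group held 2 libraries of polyadenylated RNA from whole animals of the same strain. These were 4 of the 20 libraries of a series that purified ribosomes in the same way for serotonin neurons (strain JAC433), for neurons in general (strain JAC126), for muscle and for intestine. Animals of all groups were bleach-synchronised, raised on bacteria at 22 °C and collected as L4 larvae 46 to 48 h after release from L1 arrest. The promoter that drives the tagged protein in JAC379 is not named in the labels. The input animals carry the same transgene as the animals used for purification.

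The genes described were those with a value for both dopamine replicates: 14547 of the 18917 genes listed in any of the series' 5 tissue tables. Each replicate's table listed a gene only where TRAP or input reached 1 RPKM, a read count scaled to gene length and library depth. A further 1877 genes were listed in replicate 1 alone and 399 in replicate 2 alone, with median levels of 1.19 and 1.26 RPKM in TRAP and 1.52 and 1.04 RPKM in input. Of the 14547 genes, 14400 had a mean of at least 1 RPKM over the 4 libraries and were tested. The TRAP libraries held 56.4 M and 162.3 M reads in listed genes and the input libraries 239.7 M and 123.5 M.

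Dopamine neurons of the worm are a handful of ciliated mechanosensory cells that feel the texture of the bacterial lawn and slow the animal's movement on food. They make dopamine from tyrosine with tyrosine hydroxylase (cat-2) and an aromatic amino acid decarboxylase (bas-1). They load it into vesicles with the vesicular monoamine transporter (cat-1), and take it back up with the dopamine transporter (dat-1). The TRPN channel trp-4 carries the touch response of these cells, and flp-33 encodes a FMRFamide-like neuropeptide.

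All 4 genes given as markers of dopamine neurons were higher in TRAP than in input in both replicates. The inputs of cat-2 and trp-4 in both replicates and of dat-1 in replicate 2 were under 1 RPKM. There only TRAP brought these genes onto the list, so TRAP above input was fixed by the listing and is no support. For flp-33 both inputs were above 1 RPKM. Changes are given as differences of log2(RPKM + 1), TRAP minus input, averaged over the 2 replicates. On this scale the changes of genes with low input are understated. Each change comes with the standard error (SE, n = 2 pairs) of a limma fit that paired TRAP with input by replicate. That SE uses a spread pooled over genes of like level and does not show how far the pairs of a gene lay apart. For flp-33 the 2 pairs changed by 9.62 and 4.50, and for cat-2 by 4.39 and 1.91. The neuropeptide gene flp-33 had 8760.3 and 381 RPKM in the TRAP libraries, with inputs at 10.1 and 15.9 RPKM. Its change of 7.06 ± 0.56 was the highest of all genes tested (limma adjusted p = 1.76e-32). The tyrosine hydroxylase gene cat-2 had 30.5 and 4.57 RPKM in TRAP, while the inputs held 0.503 and 0.486 RPKM, a change of 3.15 ± 0.49 (limma adjusted p = 3.19e-08). In both genes the lower TRAP library was still several-fold above the higher input.

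The transporter gene dat-1 had TRAP levels of 41.0 and 5.43 RPKM and input levels of 1.76 and 0.985 RPKM, a change of 2.81 ± 0.54 (limma adjusted p = 7.04e-06). The channel gene trp-4 had 7.96 and 2.07 RPKM in the TRAP libraries, with inputs at 0.181 and 0.193 RPKM, a change of 2.14 ± 0.39 (limma adjusted p = 1.79e-06). Every one of the 4 markers was higher in TRAP replicate 1 than in TRAP replicate 2, so the size of the change differed between replicates. Across all genes tested 8.44% of genes were called higher and 30.5% lower at an adjusted p below 0.05, and both TRAP libraries stood above both inputs in 16.8% of genes. In bulk libraries of this kind, a larger share of RNA from dopamine neurons and more RNA of a gene per neuron cannot be told apart.

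Those calls rest on the pairing and on a spread pooled over all genes, since 2 pairs leave 1 residual degree of freedom per gene. Without the replicate block limma called 0 genes in either direction, although 4015 had an unadjusted p below 0.05. The 4 markers then had adjusted p values between 0.0850 and 0.109. With the reads recovered from the deposited values, edgeR's quasi-likelihood test with the block called 1936 genes higher and 1932 lower (13.4% each), and DESeq2 2618 and 2499 (18.2% and 17.4%). The edgeR test gave adjusted p values of 0.0127 for flp-33, 0.000583 for cat-2, 0.000974 for dat-1 and 0.000402 for trp-4.

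**Figure D1:**
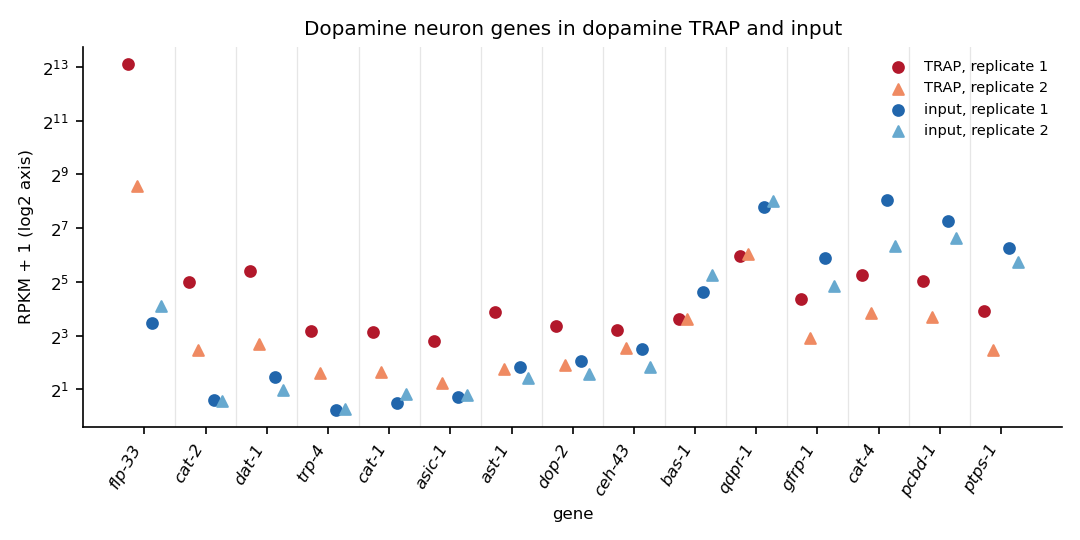
Levels of 15 dopamine neuron genes in the 4 dopamine libraries, as RPKM + 1 on a log2 axis, with TRAP (red) left of input (blue), circles for replicate 1 and triangles for replicate 2. The TRAP points of flp-33, cat-2, dat-1, trp-4, cat-1 and asic-1 lie above both inputs, and those of bas-1, cat-4 and the other cofactor genes on the right lie below input.

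The vesicular transporter gene cat-1, which dopamine neurons share with serotonin and other monoamine neurons, was also higher in TRAP. It had 7.70 and 2.09 RPKM in TRAP, while the inputs held 0.414 and 0.772 RPKM, a change of 1.71 ± 0.41 (limma adjusted p = 0.00038). The acid-sensing channel subunit asic-1, named after its values were seen, had TRAP levels of 6.03 and 1.36 RPKM and input levels of 0.645 and 0.708 RPKM. Its change was 1.28 ± 0.40 (limma adjusted p = 0.00587). The inputs of cat-1 and asic-1 were under 1 RPKM in both replicates, so both genes were listed only through TRAP and their direction was fixed. With trp-4, asic-1 made 2 members called higher among the 10 TRP and acid-sensing channels tested, of 28 on the list. The sensory channel gene trpa-2 was called lower on the RPKM scale but not after RLE scaling (adjusted p = 0.0802), and the other 7 tested passed in neither direction.

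The remaining enzymes of dopamine and cofactor synthesis were lower in TRAP. Of 7 genes on that list cat-2 was called higher and the other 6 lower. The decarboxylase gene bas-1, which serotonin neurons also use, had 11.4 and 11.2 RPKM in the TRAP libraries, with inputs at 23.3 and 37.0 RPKM, a change of -1.30 ± 0.52 (limma adjusted p = 0.0336). The GTP cyclohydrolase gene cat-4, which starts synthesis of the tetrahydrobiopterin cofactor, had 36.7 and 13.4 RPKM in TRAP, while the inputs held 260.1 and 79.7 RPKM, a change of -2.64 ± 0.48 (limma adjusted p = 2.04e-06). Tetrahydrobiopterin is also made outside the nervous system, and whether RNA of other tissues bears on these decreases was not tested. In the serotonin purification the 6 genes other than cat-2 had a median of -1.74, and 0 of the 6 differed in change from dopamine.

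The other cofactor genes were lower too. The pyruvoyl-tetrahydropterin synthase gene ptps-1 changed by -2.80, the pterin dehydratase gene pcbd-1 by -2.60, the dihydropteridine reductase gene qdpr-1 by -1.90 and the cyclohydrolase regulator gene gfrp-1 by -1.73. After scaling by size factors taken as the median of ratios to the mean library (RLE), 4 of the 6 were called lower and bas-1 (adjusted p = 0.205) and qdpr-1 (adjusted p = 0.0682) were not.

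That scaling matters for every count of genes lower in TRAP. The median change over the 14400 genes was -0.60 on the deposited RPKM scale, and -0.79 in replicate 1 and -0.42 in replicate 2. RLE scaling moved changes up by 0.61 on average and the median to -0.06. The calls then stood at 18.6% higher and 17.3% lower (2678 and 2488 genes), in place of 1216 and 4386. Lists below are to be read against the -0.60 of all genes and against the shares of all genes called under each scaling.

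Genes of dopamine breakdown were not higher in TRAP. Of 6 tested (3 monoamine oxidase genes of the amx family and 3 catechol methyltransferase genes of the comt family), 4 were called lower on the RPKM scale and 2, comt-3 and comt-5, after RLE scaling. The change of comt-3 was -2.13 ± 0.54 (limma adjusted p = 0.00064), while amx-1 and amx-2 were at -0.31 and -0.47 and passed neither test.

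None of the 3 dopamine receptor genes tested, of 6 on the list, passed on the RPKM scale, and their median was 0.17. The D2-like receptor gene dop-2, which acts as an autoreceptor on dopamine neurons, had TRAP levels of 9.33 and 2.72 RPKM and input levels of 3.18 and 1.96 RPKM, and the groups overlapped (change 0.82 ± 0.50, limma adjusted p = 0.185). It was called higher after RLE scaling (adjusted p = 0.0144). The receptor genes dop-1 and dop-3 were at 0.17 and -0.84, and dop-4 was listed in replicate 2 alone. Both TRAP levels of dop-3 were under 1 RPKM, so it was listed only through input and its direction was fixed.

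Among 5 transcription factors that specify dopamine neurons, 1 was called higher on the RPKM scale and 2 after RLE scaling, with a median of 0.21. The ETS factor gene ast-1 had 13.8 and 2.38 RPKM in the TRAP libraries, with inputs at 2.57 and 1.67 RPKM, a change of 1.197 ± 0.50 (limma adjusted p = 0.0453). Its TRAP replicate 2 lay below input replicate 1. The Distalless homeobox gene ceh-43 had 8.12 and 4.80 RPKM in TRAP, above both inputs at 4.59 and 2.56 RPKM, and was called after RLE scaling (adjusted p = 0.0247) but not on the RPKM scale (adjusted p = 0.29). The Pax6-like gene vab-3, the Pbx gene ceh-20 and the Meis gene unc-62 had changes of 0.21, -0.12 and -0.57, with no call under either scaling.

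Beyond the dopamine genes, the list of 54 genes for cilia and intraflagellar transport had 21 members tested and a median change of 0.78, against -0.60 for all genes. On the RPKM scale 6 were called higher and 1 lower, and after RLE scaling 15 and 0. The median and these calls rest in part on members that the same fraction alone listed in both replicates, so their direction was fixed. Among them are osm-3, dyf-18, dyf-2 and arl-13, with inputs under 1 RPKM, and mksr-1, the member called lower, with TRAP under 1 RPKM. Dopamine neurons end in cilia, as do the amphid and other sensory neurons that the lysate holds. The increase was not particular to this purification. In the serotonin purification the median of the list was 0.88 over 20 genes, and 0 of the 20 differed in change from dopamine. The gene dyf-3, which sensory cilia need, had 20.99 and 12.6 RPKM in TRAP, while the inputs held 0.988 and 2.36 RPKM, a change of 2.74 ± 0.55 (limma adjusted p = 1.59e-05). The kinesin motor gene osm-3 had TRAP levels of 3.32 and 3.38 RPKM and input levels of 0.519 and 0.353 RPKM, a change of 1.601 ± 0.39 (limma adjusted p = 0.000395). In both, each TRAP library was well above both inputs. The inputs of osm-3 in both replicates and of dyf-3 in replicate 1 were under 1 RPKM, so there TRAP alone brought them onto the list. In the serotonin purification dyf-3 and osm-3 each changed by 2.29. The RFX factor gene daf-19, which switches on cilium genes, the kinesin gene klp-20 and the transport gene osm-1 were also called higher, at 1.59, 1.77 and 1.17.

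Of 34 genes tested from a list used by all neurons, 5 were called higher and 7 lower, with a median of 0.10 (after RLE scaling 10 and 3). Called lower were thus 20.6%, under the 30.5% of all genes, and called higher 14.7%, beside 8.44%. Members called higher were the proprotein convertase gene egl-3 (2.82), the dense-core vesicle gene ida-1 (2.47), the carboxypeptidase gene egl-21 (1.82), the convertase chaperone gene sbt-1 (1.48) and the axonal gene unc-76 (1.72). The first of these, egl-3, had 99.7 and 23.4 RPKM in the TRAP libraries, with inputs at 3.23 and 10.6 RPKM. In the serotonin purification egl-3 changed by 3.26 and ida-1 by 2.38, and 0 of 32 genes of this list differed in change from dopamine. Members called lower included the complexin gene cpx-1 (-2.07), the synaptogyrin gene sng-1 (-1.66), the synaptotagmin gene snt-1 (-1.56) and the SNARE gene ric-4 (-1.51). After RLE scaling cpx-1 and sng-1 were still called, and snt-1 and ric-4 were not. The synaptic vesicle gene rab-3 passed in neither direction at -0.26.

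Most markers of other neuron types were lower or not called, with mec-12 as an exception. Of 9 genes tested for glutamate, acetylcholine, GABA, octopamine and tyramine neurons 6 were called lower and 0 higher, with a median of -1.34 (4 and 0 after RLE scaling). The vesicular glutamate transporter gene eat-4 had 0.481 and 0.337 RPKM in TRAP, while the inputs held 5.39 and 2.28 RPKM (change -1.70 ± 0.39, limma adjusted p = 0.000181). Its TRAP levels were under 1 RPKM in both replicates, so eat-4 was listed only through input and its direction was fixed. This also held for unc-46, another member called lower, at 0.309 and 0.155 RPKM in TRAP. The serotonin synthesis and uptake genes tph-1 and mod-5 were not listed for both replicates. Of 8 touch receptor neuron genes 1 was called higher, mec-12 at 1.36, and 2 lower, mec-17 at -2.41 and mec-3 at -1.25, with a median of -0.30. The 25% called lower is under the 30.5% of all genes, and mec-3 lost its call after RLE scaling (adjusted p = 0.0689). In replicate 2 mec-3 was under 1 RPKM in TRAP, so there input alone brought it onto the list. The 5 glial genes tested had a median of -1.35, and 4 were called lower, of which F16F9.3 (-2.41) and ptr-10 (-1.58) were still called after RLE scaling and the other 2 were not.

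Most neuropeptide genes were lower in TRAP, while flp-33 was the gene with the highest change. Of 99 tested, 4 were called higher and 63 lower, with a median of -1.37 against -0.60 for all genes (5 and 32 after RLE scaling). Beside flp-33 the members called higher were ins-37 (1.70), flp-9 (1.46) and nlp-13 (1.32), chosen for naming after their values were seen. Of these ins-37 alone had both TRAP libraries above both inputs, at 94.1 and 63.7 RPKM in the TRAP libraries, with inputs at 20.8 and 25.7 RPKM. The lowest p among those called lower belonged to nlp-31, one of a cluster of antimicrobial peptide genes of the epidermis, at 53.9 and 31.2 RPKM in the TRAP libraries, with inputs at 330.2 and 262 RPKM (change -2.81 ± 0.52, limma adjusted p = 2.68e-06). The list thus holds genes that are not neuronal.

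**Figure D2:**
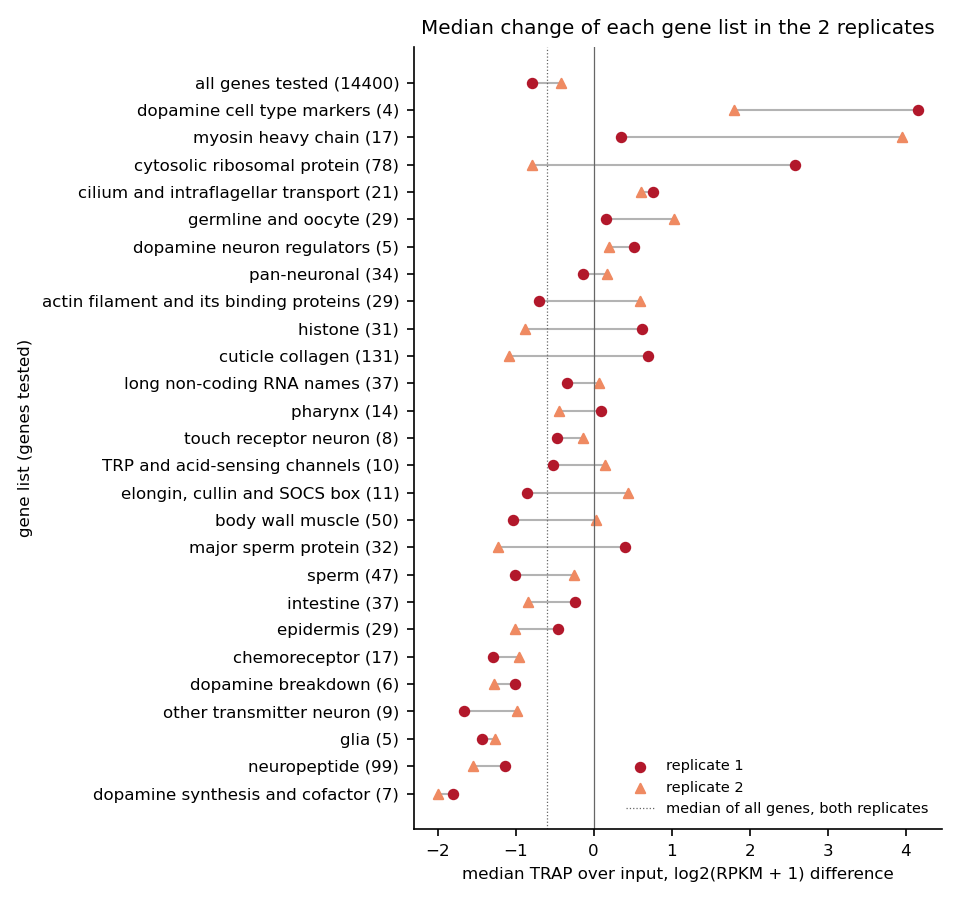
Median change, TRAP minus input as a difference of log2(RPKM + 1), of each gene list with at least 4 genes tested, in replicate 1 (circles) and replicate 2 (triangles); the number of genes tested stands in parentheses, and a dotted line marks the median of all genes over both replicates. The dopamine markers lie right of 0 in both replicates, while the cytosolic ribosomal protein list has medians of 2.58 and -0.79 and the myosin heavy chain list of 0.34 and 3.95.

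Over all genes the changes of the 2 replicates correlated at r = 0.68 and rho = 0.71 across 14400 genes, and had the same sign in 77.6% of them. Genes are not independent replicates, and TRAP and input of a replicate enter the same change. With genes ranked by mean RPKM into 5 groups of equal size, the correlation was 0.65, 0.73, 0.76, 0.74 and 0.65 from the lowest to the highest. In all, 880 genes were more than 2-fold higher in TRAP in both replicates on this scale and 3578 more than 2-fold lower in both. The same sign was found in 1190 of the 1216 genes called higher, in 4383 of the 4386 called lower and in 63.7% of the 8798 not called. Calls were made on the mean of these same replicates, so the shares among called genes are in part fixed by the selection.

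**Figure D3:**
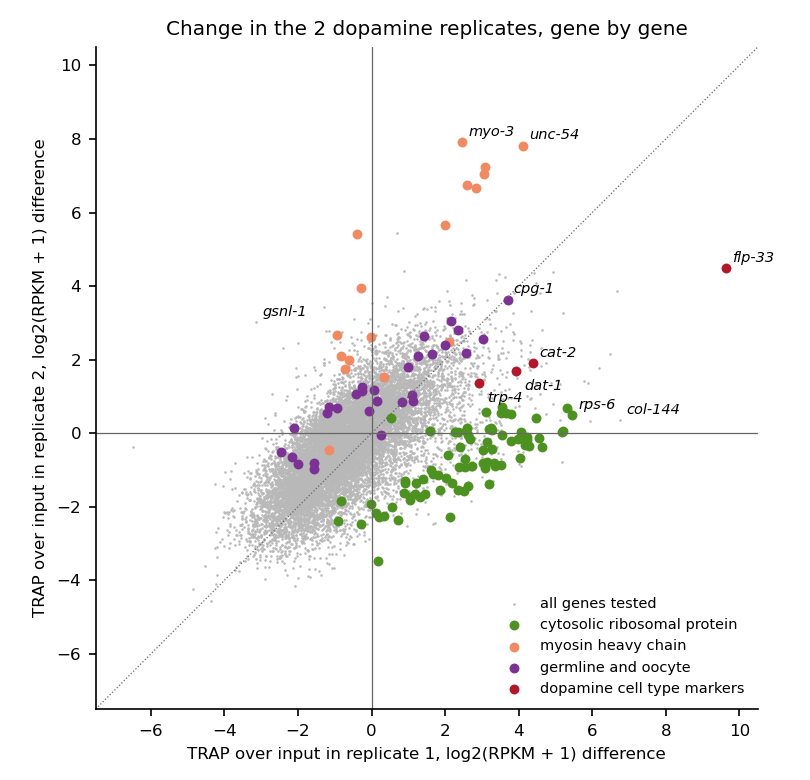
Change in replicate 1 (x axis) against change in replicate 2 (y axis), each TRAP minus input as a difference of log2(RPKM + 1), for the 14400 genes tested (grey) and 4 gene lists in colour; the dotted line marks equal changes. The 4 dopamine markers lie in the upper right below that line, myosin heavy chain genes above it, and cytosolic ribosomal protein genes to the right at a low or negative change in replicate 2.

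A group of muscle and cytoskeleton genes was far more abundant in TRAP replicate 2 than in TRAP replicate 1. In replicate 2 the body wall muscle myosin heavy chain gene unc-54 took 20.5% of all reads, while the most abundant gene of any other dopamine library took at most 1.08%. It had 418 and 33081 RPKM in TRAP, while the inputs held 23.3 and 146 RPKM, a change of 5.96 ± 0.78 (limma adjusted p = 2.58e-11). The second body wall myosin gene, myo-3, had TRAP levels of 35.2 and 4161 RPKM and input levels of 5.60 and 16.3 RPKM (change 5.18 ± 0.48, limma adjusted p = 8.12e-23). The pharyngeal myosin gene myo-2 had 19.5 and 648 RPKM in the TRAP libraries, with inputs at 1.403 and 3.33 RPKM, and the nonmuscle myosin gene nmy-2 had 41.8 and 1803 RPKM in TRAP, while the inputs held 4.11 and 12.6 RPKM. In each of these genes TRAP replicate 2 was far above TRAP replicate 1. They are among the largest increases, which were chosen for TRAP libraries that both lay above both inputs.

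Of the 17 myosin heavy chain genes, a list added after the values were seen, every member was higher in TRAP replicate 2 than in TRAP replicate 1. The list was called higher in 10 members and lower in 0 (15 and 0 after RLE scaling), with medians of 0.34 in replicate 1 and 3.95 in replicate 2. These genes are related in sequence, and how reads were divided among them was not tested. With edgeR on the recovered reads unc-54, myo-3, nmy-1 and nmy-2 were not called (adjusted p from 0.0625 to 0.306), and myo-2, myo-1, myo-5 and hum-7 were. The unconventional myosin gene hum-5 was called higher while the replicates went opposite ways, at 20.8 and 790 RPKM in the TRAP libraries, with inputs at 27.5 and 17.6 RPKM.

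**Figure D4:**
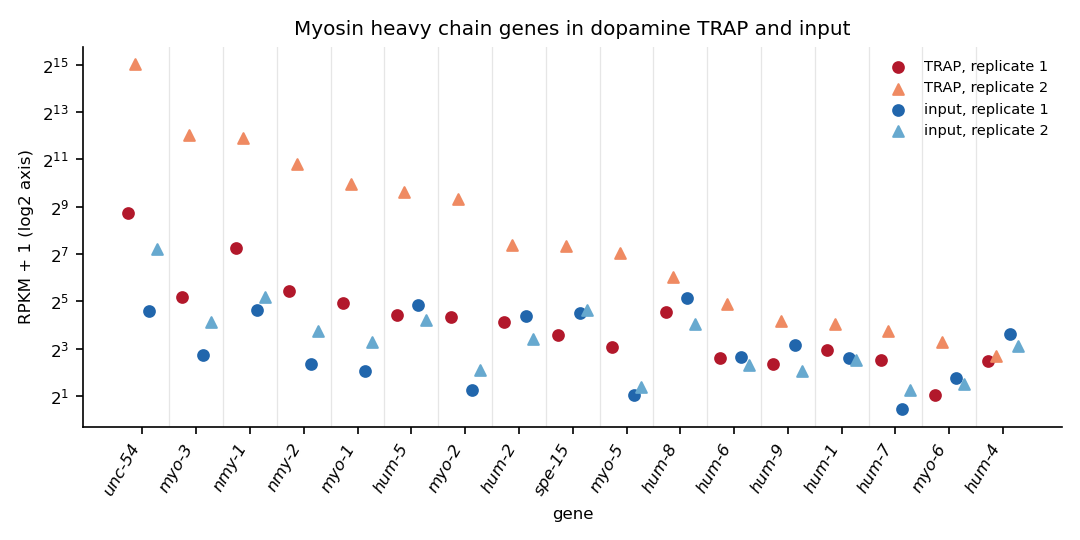
Levels of the 17 myosin heavy chain genes in the 4 dopamine libraries, as RPKM + 1 on a log2 axis, with TRAP (red) left of input (blue), circles for replicate 1 and triangles for replicate 2. The TRAP replicate 2 triangle lies above the TRAP replicate 1 circle for all 17 genes, and above both inputs for all but hum-4.

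Of 29 genes for actin and its binding proteins, a list also added after the values were seen, 25 were higher in TRAP replicate 2 than in TRAP replicate 1 and 4 were lower. On the RPKM scale 6 were called higher and 5 lower, with a median of -0.05 (8 and 1 after RLE scaling). Called lower were thus 17.2%, under the 30.5% of all genes, and called higher 20.7%, beside 8.44%. The gelsolin-like gene gsnl-1 had 11.8 and 402 RPKM in the TRAP libraries, with inputs at 111.8 and 48.3 RPKM, so it changed by -3.14 in replicate 1 and 3.03 in replicate 2. The tropomodulin gene tmd-2, at 6.01 and 102.3 RPKM in TRAP, while the inputs held 27.1 and 17.8 RPKM, and the alpha-actinin gene atn-1, at 39.1 and 203 RPKM in the TRAP libraries, with inputs at 138.6 and 67.2 RPKM, did likewise. The tropomodulin gene unc-94 (2.65) and the obscurin gene unc-89 (3.06) were called higher, and both were above both inputs. These 5 genes were named after their values were seen.

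The body wall muscle list as a whole was not higher: 6 of 50 members were called higher and 10 lower, with medians of -1.03 in replicate 1 and 0.03 in replicate 2 (9 and 2 after RLE scaling). The 20% called lower is under the 30.5% of all genes. Its summed level was 8001 and 56983 RPKM in the TRAP libraries, with inputs at 17188 and 19465 RPKM, and 48 of 50 members were higher in TRAP replicate 2 than in TRAP replicate 1. Beside unc-54, myo-3 and unc-89 the members called higher were the troponin gene tni-3 (2.16), the paramyosin gene unc-15 (2.03) and the titin-like gene ttn-1 (1.04). The profilin gene pfn-3 was called lower at -3.16, as were the attachment genes pat-6 (-1.74) and pat-3 (-1.47). The part of muscle RNA in the other results was not tested.

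Replicate 1 stood apart in another group, the cytosolic ribosomal proteins. Their median change was 2.58 in replicate 1 and -0.79 in replicate 2. All 78 were higher in TRAP replicate 1 than in TRAP replicate 2, and 74 were lower in input replicate 1 than in input replicate 2. Their summed level was 543596 and 141397 RPKM in the TRAP libraries, with inputs at 157796 and 281080 RPKM. The small subunit gene rps-6 had 3613 and 1668 RPKM in the TRAP libraries, with inputs at 81.1 and 1191 RPKM. The fit called 3 members higher and 0 lower (rps-6, rpl-20 and rpl-25.1), of which rps-6 was also called after RLE scaling. By edgeR rps-6 and rpl-20 were not called (adjusted p = 0.176 and 0.221).

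Cuticle collagens divided by replicate too, with medians of 0.69 in replicate 1 and -1.09 in replicate 2 over 131 genes. Of these 19 were called higher and 35 lower (31 and 23 after RLE scaling). Called lower were thus 26.7%, under the 30.5% of all genes, and called higher 14.5%, beside 8.44%. The collagen gene col-144 had 570 and 221 RPKM in TRAP, while the inputs held 4.25 and 172 RPKM, and col-10 had TRAP levels of 242 and 249 RPKM and input levels of 2.98 and 197 RPKM. In both the low value was input replicate 1. The collagen gene rol-8, at 390.1 and 348 RPKM in the TRAP libraries, with inputs at 9.81 and 602 RPKM, was called higher while its change was -0.79 in replicate 2.

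Several oocyte genes were higher in TRAP than in input. Of 29 germline and oocyte genes tested 10 were called higher and 5 lower, with a median of 0.51 (14 and 0 after RLE scaling). Called higher were thus 34.5%, beside the 8.44% of all genes, and called lower 17.2%, under 30.5%. The eggshell proteoglycan gene cpg-1 had 58.4 and 61.0 RPKM in TRAP, while the inputs held 3.58 and 4.01 RPKM, a change of 3.66 ± 0.53 (limma adjusted p = 1.49e-09). The embryonic RNA-binding protein gene mex-5 had TRAP levels of 46.3 and 70.9 RPKM and input levels of 4.73 and 11.2 RPKM, a change of 2.80 ± 0.50 (limma adjusted p = 1.61e-06). The oocyte genes oma-2 (2.60), cbd-1 (2.58), pie-1 (2.37), rme-2 (2.04) and oma-1 (1.68) were also called higher. The meiotic chromosome genes htp-2 (-1.47), syp-3 (-1.41), syp-2 (-1.19) and him-3 (-1.26) and the stem cell gene fbf-2 (-1.41) were called lower on the RPKM scale and not after RLE scaling. Whether germline RNA bears on the other results was not tested.

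Of 37 intestinal genes 6 were called higher and 11 lower, with a median of -0.79 (6 and 6 after RLE scaling). The 29.7% called lower is close to the 30.5% of all genes, and the 16.2% called higher stands beside 8.44%. The yolk protein genes vit-2, vit-5, vit-6, vit-4 and vit-3 were higher, at 2.40, 2.12, 1.81, 1.06 and 1.02, and vit-1 was not called at -0.40. The gap junction gene inx-16 had 16.7 and 12.2 RPKM in the TRAP libraries, with inputs at 158 and 82.3 RPKM, a change of -2.91 ± 0.48 (limma adjusted p = 1.29e-07).

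The elongin, cullin and SOCS-box ubiquitin ligase was measured through 11 of 12 listed subunits and adaptors. The elongin C gene elc-1 (-1.74), the elongin B gene elb-1 (-1.30) and the von Hippel-Lindau adaptor gene vhl-1 (-1.66) were called lower, and the SOCS-box gene zif-1 (1.31) higher. After RLE scaling elc-1 was still called lower, and elb-1 and vhl-1 were not. The 27.3% called lower and 9.09% called higher are close to the 30.5% and 8.44% of all genes, and the median was -0.37. The cullin genes cul-2 (0.48) and cul-5 (-0.37) passed in neither direction under either scaling.

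Most of the largest increases other than flp-33, myosins and collagens were of genes that the files give by sequence name alone. The gene K07B1.8 had 104.3 and 56.6 RPKM in TRAP, while the inputs held 0.0323 and 2.91 RPKM, a change of 5.28 ± 0.55 (limma adjusted p = 3.29e-18). The gene Y39B6A.1 had TRAP levels of 322 and 571 RPKM and input levels of 9.62 and 26.5 RPKM, a change of 4.65 ± 0.50 (limma adjusted p = 2.2e-17). Further increases were those of Y69A2AR.8 (4.39), T27A3.4 (4.31, spch-3 in RefSeq), Y71F9AL.4 (4.28), Y47D9A.3 (4.23) and Y23H5B.2 (4.20). The largest increases were chosen among genes whose TRAP libraries both lay above both inputs, so that order is not a finding. T27A3.4 had 1374 and 483 RPKM in the TRAP libraries, with inputs at 14.5 and 108 RPKM, while the 4 others were higher in TRAP replicate 2.

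The 10 largest decreases were taken, like the increases, among genes whose TRAP and input libraries did not overlap. The mitochondrial ribosomal protein gene mrpl-45 had 2.68 and 2.57 RPKM in TRAP, while the inputs held 104.4 and 66.2 RPKM, a change of -4.54 ± 0.52 (limma adjusted p = 1.03e-14). The adaptor complex gene aps-3 had TRAP levels of 5.59 and 1.32 RPKM and input levels of 135 and 54.04 RPKM, a change of -4.47 ± 0.52 (limma adjusted p = 1.41e-14). The acyl-CoA-binding protein gene acbp-3 changed by -3.72 and the nucleotide sugar transporter gene srf-3 by -3.66. Y18D10A.3 was listed at 0 in TRAP replicate 2 and 0.815 RPKM in TRAP replicate 1, against 32.3 and 9.36 RPKM in input. With both TRAP levels under 1 RPKM, it was listed only through input and its direction was fixed. Input alone also listed C50F2.4 in replicate 1 and W02H5.2 in replicate 2. The change of Y47D3A.21 was -4.16, that of Y94H6A.7 -4.08, that of F40G9.17 -4.02, that of C50F2.4 -3.68 and that of W02H5.2 -3.67. All 10 genes were also called lower after RLE scaling.

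The change followed gene length, as implied by the reads behind 1 RPKM. In 5 groups of equal size, from the shortest to the longest genes, the median change was -1.07, -0.92, -0.63, -0.54 and 0.03, and the share called lower 45.8%, 40.6%, 28.5%, 26.8% and 10.6%. The rank correlation of change with length was 0.29 across 14377 genes, and 0.15 in replicate 1 and 0.39 in replicate 2. It was 0.27 for the serotonin and 0.28 for the neuronal purification. Myosin genes such as unc-54 are long and ribosomal protein genes short. Among genes lower in TRAP, nlp-31, ptps-1 and gfrp-1 are also short, at relative lengths of 0.36 to 0.38. The shortest group had a median relative length of 0.38. Not all went this way: flp-33, with the highest change, is at 0.37, and bas-1, called lower, at 1.34. The part of length in the changes of all these genes was not tested.

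Across 13981 genes listed for both, the dopamine change correlated with the serotonin change at r = 0.85, and across 12451 genes with the neuronal change at r = 0.06. The purifications share no library, but share stage and protocol. Tested as an interaction in limma, the dopamine change was higher than the serotonin change in 0.0287% of 13931 genes and lower in 0.323%, which are 4 and 45 genes. These calls also needed the block, without which 0 genes were called in either direction (limma, 147 at an unadjusted p below 0.05).

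The 4 genes with a higher dopamine change were flp-33, dat-1, F59F3.6 and F09E10.7. The change of flp-33 was 7.06 in the dopamine and 0.17 in the serotonin purification, a difference of 6.89 ± 1.04 (limma adjusted p = 0.00479). That of dat-1 was 2.81 and -0.72, a difference of 3.53 ± 0.69 (limma adjusted p = 0.0319). In dopamine replicate 2 the input of dat-1 was under 1 RPKM. In serotonin replicate 1 dat-1 had 0.246 RPKM in TRAP and 1.76 RPKM in input. With lists that begin at 1 RPKM, the listing fixed the sign of the change in these pairs. F59F3.6 had 247 and 37.5 RPKM in dopamine TRAP, against 1.06 and 2.41 RPKM in serotonin TRAP, and its change differed by 5.94 ± 0.74 (limma adjusted p = 0.000764). F09E10.7 had 502 and 100.5 RPKM in dopamine TRAP, against 5.38 and 10.3 RPKM in serotonin TRAP, and differed by 5.77 ± 0.64 (limma adjusted p = 0.000351). The files give both genes by sequence name alone. The gene cat-2 was listed in 1 serotonin replicate, at 0.187 RPKM in TRAP, and trp-4 in none, so their difference was not tested.

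Among the 45 genes with a lower dopamine change, the 5 largest differences were those of R102.2 (-7.04), F28D1.6 (-6.47), C33A12.4 (-5.03), F58B4.3 (-4.997, nssp-63 in RefSeq) and the insulin-like peptide gene daf-28 (-4.71). R102.2 had 96.2 and 28.1 RPKM in dopamine TRAP, against 8447 and 5349 RPKM in serotonin TRAP. The insulin gene daf-28 had 15.9 and 16.8 RPKM in dopamine TRAP, against 1845 and 639 RPKM in serotonin TRAP. For the myosins no difference was called: unc-54 changed by 5.96 in the dopamine and 5.27 in the serotonin purification, a difference of 0.69 ± 0.97 (limma adjusted p = 1). It had 1952 and 1756 RPKM in serotonin TRAP, against 65.0 and 33.8 RPKM in serotonin input.

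**Figure D5:**
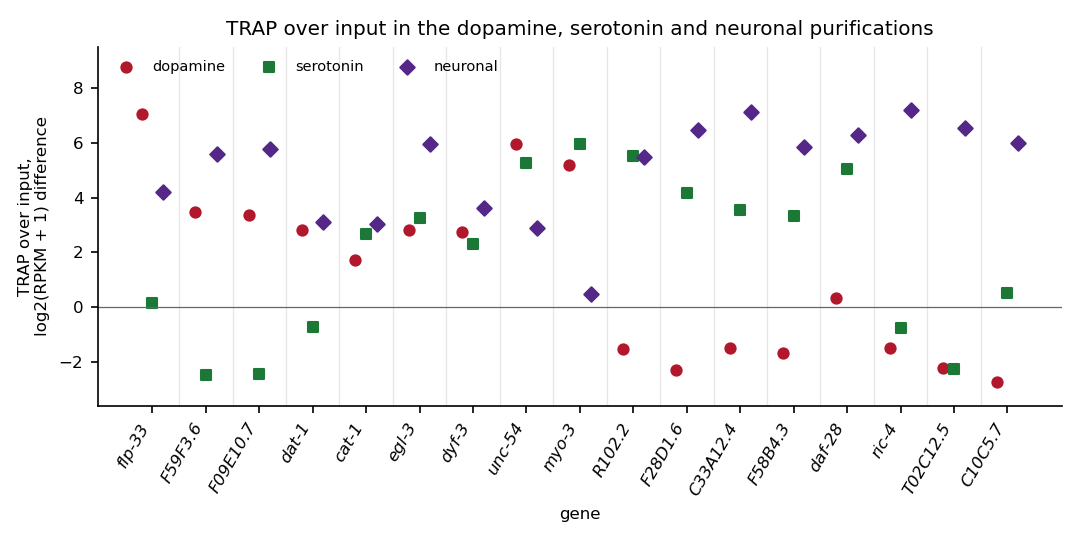
Mean change over 2 replicates, TRAP minus input as a difference of log2(RPKM + 1), of 17 genes in the dopamine (circles), serotonin (squares) and neuronal (diamonds) purifications. For flp-33, F59F3.6, F09E10.7 and dat-1 the dopamine and neuronal points are above 0 and the serotonin point is near or below it, while for R102.2 to C10C5.7 the neuronal point is far above the dopamine one.

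Against the neuronal purification, the dopamine change was higher in 1.25% of 12354 genes and lower in 19.2%, or 155 and 2376 genes (1354 and 1907 after RLE scaling, 21 and 1261 without the block). Of 34 pan-neuronal genes 26 had a lower dopamine change, with medians of 0.10 in the dopamine and 4.43 in the neuronal purification. Of 98 neuropeptide genes 79 did. The SNARE gene ric-4 changed by -1.51 in the dopamine and 7.19 in the neuronal purification, a difference of -8.70 ± 1.09 (limma adjusted p = 9.08e-12). F28D1.6 (-8.75), C33A12.4 (-8.61), T02C12.5 (-8.76, nssp-30 in RefSeq) and C10C5.7 (-8.72, nssp-45 in RefSeq) differed by as much. The 2 neuronal inputs were unlike: ric-4 was at 23.9 and 3.52 RPKM in them and egl-3 at 21.9 and 0.372 RPKM. R102.2 went the other way, at 110 and 317 RPKM. The part of the neuronal input levels in these differences was not tested.

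Of the 4 dopamine markers flp-33 was the one with a higher change than in the neuronal purification, by 2.84 ± 1.08 (limma adjusted p = 0.0432). It had 707 and 215 RPKM in neuronal TRAP, against 32.6 and 12.1 RPKM in neuronal input. For cat-2 the changes were 3.15 in the dopamine and 4.66 in the neuronal purification, and the difference of -1.51 ± 1.06 passed no test (limma adjusted p = 0.303). The neuronal TRAP libraries held 30.8 and 33.8 RPKM of cat-2. The 5 largest differences with a higher dopamine change were those of Y4C6A.68 (5.62), col-140 (5.41), myo-2 (5.29), the histone gene his-64 (5.11) and T27A3.4 (4.82).

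The authors' deposited table of dopamine-enriched genes held 564 names, chosen on these same samples by a ratio of at least 2 in both replicates and by absence of like enrichment in the serotonin purification. All 564 met that ratio here, as did 1343 genes in all. Of the 535 tested, 323 (60.4%) were called higher and 0 lower, beside the 8.44% of all genes, which the choice of the list on these samples fixes in part. Of the 411 that could be tested against serotonin, 4 were called. In the authors' deposited table the highest mean ratios were 588 for flp-33, 143.8 for Y49E10.30 and 120 for R11G1.1. Y49E10.30 had 2.18 and 3.84 RPKM in the TRAP libraries, with inputs at 0.0143 and 0 RPKM, and R11G1.1 had 9.63 and 1.49 RPKM in TRAP, while the inputs held 0.0563 and 0.0932 RPKM. In both genes the inputs were near 0.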

How the data were processed

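Dopamine TRAP and input RNA of C. elegans, 2 libraries each, was compared, with the 4 serotonin and 4 neuronal libraries as a second comparison. Per the submitters' processing notes STAR and HTSeq were used, with versions, genome build and annotation not given in the sources used here. The deposited RPKM values were the authors', one per gene, replicate and fraction, and each replicate's list began at 1 RPKM. The deposited count columns held, per the file headers, reads for TRAP and input. Read from the values, these were whole reads plus 1, multiplied in TRAP replicate 1 and input replicate 2 by a factor (5.66 and 1.40) which put both fractions of a replicate on 1 scale; the file's deposited columns are treated here as signal. Dividing by these factors gave whole reads for 100.0% of low values, allowing for rounding, in all 4 libraries. The deposited ratio is TRAP over input of these columns, per the file headers. Sample names were matched by header and title.

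Changes were tested in limma 3.58.1 (R 4.3.3) on log2(RPKM + 1), with trend, replicate as a block, a minimum mean of 1 RPKM and Benjamini-Hochberg adjustment over all genes tested at 0.05. The difference from another purification was the interaction term, with replicate within strain as a block. The pairing comes from the tables, which set TRAP beside the input of the same replicate; the replicate difference of TRAP correlated with that of input at 0.52 across genes. The file headers call the replicates biological and the labels do not say whether they were separate cultures. The p-values measure a spread between these samples that is pooled over genes of like level. In the main fit and in the neuronal comparison the prior degrees of freedom were infinite, so a gene's own replicate spread had no weight. Alternatives were no block, RLE scaling, pseudocounts of 0.1 and 5, no filter or a mean of at least 10 RPKM, edgeR 4.0.16 and DESeq2 1.42.0 on recovered reads with the block, and leaving out libraries. The limma fits were run on simulated data with noise drawn from a spread shared by genes of like level. Such data cannot show how the fits treat genes whose pairs lay far apart.

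Named genes were all listed dopamine genes, the 15 largest increases and 10 largest decreases past the threshold with 10 RPKM or more in 1 fraction and no overlap of libraries, the members of smallest p of each list, the 3 largest replicate differences each way and the 5 largest differences each way from the serotonin and neuronal changes. Other list members were named after their values were seen. Members and lists were chosen with earlier results of these data known. Of 16823 gene names in either replicate, 14737 equal a RefSeq symbol, 1757 were found under another and 329 were unmatched.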

Additional observations from a re-analysis of the deposited data

Results flagged for a closer look

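Each gene here was picked out because a test of the difference itself found its TRAP over input change to differ between purifications (limma interaction, replicate block). Values are the dopamine change minus the other change, as differences of log2(RPKM + 1). Against the serotonin purification the difference was 6.89 for flp-33, 5.94 for F59F3.6, 5.77 for F09E10.7 and 3.53 for dat-1. For dat-1 the listing fixed the sign of the change in dopamine replicate 2 and in serotonin replicate 1. It was -7.04 for R102.2, -6.47 for F28D1.6, -5.03 for C33A12.4, -4.997 for F58B4.3 and -4.71 for daf-28. Against the neuronal purification it was 5.62 for Y4C6A.68, 5.41 for col-140, 5.29 for myo-2, 5.11 for his-64, 4.82 for T27A3.4 and 2.84 for flp-33. It was -8.76 for T02C12.5, -8.75 for F28D1.6, -8.72 for C10C5.7, -8.70 for ric-4 and -8.61 for C33A12.4. The gene his-64 had 81.1 and 2.43 RPKM in dopamine TRAP, against 9.82 and 2.86 RPKM in dopamine input; without TRAP replicate 1 its change was -0.92. myo-2 had 19.5 RPKM in TRAP replicate 1 and 648 RPKM in TRAP replicate 2, and the sources of these differences were not tested.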

How the results depend on the processing

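Pseudocounts of 0.1 and 5 and the absence of a filter left the counts of genes called higher and lower within 1.5 times of those reported, as they did in both comparisons between purifications. RLE scaling gave 2678 higher and 2488 lower with a median of -0.058, edgeR with the replicate block on recovered reads 1936, 1932 and -0.11, and DESeq2 with the block 2618, 2499 and -0.071, in place of 1216, 4386 and -0.60. The minimum of 10 RPKM gave 736 and 2915 of fewer genes tested. Without the replicate block 0 and 0 were called. Leaving out a single library, fitted without the block, gave 159 higher and 680 lower without TRAP replicate 1, 87 and 96 without TRAP replicate 2, 0 and 0 without input replicate 1, and 75 and 226 without input replicate 2, with medians from -0.84 to -0.30. For the difference from the serotonin change, 4 higher and 45 lower became 2 and 29 after RLE scaling, 0 and 0 without the replicate block, and 2 to 4 and 5 to 13 with 1 dopamine pair. For the difference from the neuronal change, 155 higher and 2376 lower became 1354 and 1907 after RLE scaling, 21 and 1261 without the block, and 1 to 98 and 101 to 185 with 1 dopamine pair. Called changes turned sign between single replicates for his-48 (-0.29 to 4.15), rol-8 (-0.79 to 5.18), his-64 (-0.17 to 2.92), hum-5 (-0.39 to 5.41) and hum-2 (-0.29 to 3.95). Without TRAP replicate 2 hum-5 was at -0.079, without input replicate 1 rol-8 at -0.71 and without TRAP replicate 1 his-64 at -0.92. The cause was not tested. Of the named genes 96 were called, and 10 of these lost the call under RLE scaling, 31 under edgeR and all 96 without the block. The correlation of the replicate changes ranged from 0.66 to 0.68 over other pseudocounts, filters and the deposited ratio. Depth limits low genes such as cat-2, with 100 reads in input replicate 2.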

Other observations

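The major sperm protein genes had medians of 0.40 in replicate 1 and -1.23 in replicate 2 over 32 genes, and 31 of the 32 were higher in TRAP replicate 1 than in TRAP replicate 2. Of these 1 was called higher, msp-71 at 101 and 99.2 RPKM in the TRAP libraries, with inputs at 18.1 and 37.5 RPKM, and 6 lower, among them msp-152 at 145 and 47.1 RPKM in the TRAP libraries, with inputs at 728 and 483 RPKM. After RLE scaling 3 were called higher and 1 lower, and the 18.8% called lower on the RPKM scale is under the 30.5% of all genes. These genes are near-identical copies, so the split of reads among them is uncertain. Of 31 histone genes 30 were higher in TRAP replicate 1 than in TRAP replicate 2, for example his-48 at 75.2 and 5.37 RPKM in TRAP, while the inputs held 3.30 and 6.80 RPKM. The coelomocyte genes cup-4 (-1.98) and lgc-26 (-1.54) were called lower under both scalings. In replicate 1 lgc-26 was under 1 RPKM in TRAP, so there input alone brought it onto the list.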
